A study of Mus musculus with 15 samples.

Results

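The NR4A receptors Nr4a1, Nr4a2 and Nr4a3 were followed through all 5 treatment groups of a microarray study of mouse B cells. Of 18193 genes named on the array these are 3, and every probe set annotated to one of them was taken, 10 of 45037: 1 for Nr4a1, 6 for Nr4a2 and 3 for Nr4a3. Of these, 8 passed the filter on low signals and were tested, and 2 probe sets of Nr4a3 did not pass.

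NR4A proteins are transcription factors of the nuclear receptor superfamily. They are called orphan receptors because their ligand pocket is filled by amino acid side chains and no hormone is known to switch them on, so their activity is set largely by how much of them a cell makes. In lymphocytes the genes are transcribed within minutes of antigen receptor signalling, through calcium, calcineurin, MEF2 and CREB, and in mouse B cells Nr4a1 is widely used as a reporter of antigen receptor signal strength. Mouse B cells that lack Nr4a1 and Nr4a3 respond more strongly to antigen receptor signals that come without a second signal.

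The cells were B cells of AM-14 mice, which carry a transgenic antigen receptor that binds self IgG, a rheumatoid factor. They were treated with anti-IgM, an F(ab')2 goat antibody that crosslinks the antigen receptor, with CpG, the oligodeoxynucleotide 1826 that is read by the endosomal receptor TLR9, with PL2-3, an anti-chromatin antibody that forms immune complexes able to engage both receptors, or with anti-IgM and CpG together, against cells in media alone. Each group had 3 arrays, 15 in all, with 1 RNA sample on each. No age, dose, time of stimulation or strain background was given in the sources used here. Nothing in the labels tells separate mice or cultures from repeat samples, and the p-values therefore cover only the spread between these arrays, which may be technical. The combined treatment was taken from the sample titles, since its treatment field is filled with none. The number 1826 was recorded for the CpG arrays only, and the same oligodeoxynucleotide was assumed for the combined treatment.

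The arrays were not alike in technical measures, and this touches every NR4A value. Replicates 1 and 2 of each group were labelled with the Enzo kit and replicate 3 with the Ambion kit, and the kit was a term of the fit. The beta-actin control's 5' signal over its 3' signal was 0.335 to 0.747 on the 8 Enzo arrays outside the combined treatment and 0.108 to 0.201 on the 4 Ambion arrays there. The 3 arrays of the combined treatment had 0.105 to 0.193, so the 2 of them labelled Enzo, at 0.105 and 0.193, lay below all 8 other Enzo arrays, and the first of them also below the 4 Ambion arrays. The same 3 arrays had an Xist signal of 321 to 589, against 4252 to 15543 on the other 12. The main results that use the combined treatment are therefore also given with its 3 arrays counted as Ambion type from their actin ratio. This is called the actin-based labelling below, and the part of these differences in the results was not tested beyond that. It does not address the Xist difference. Since all 3 arrays of the combined treatment had the low Xist signal, the treatment and whatever lies behind that signal cannot be told apart. All 7 B cell markers on the array were at or above the array median on every array, and their summed signal was 63931 to 79489 with anti-IgM, 89345 to 100279 with CpG, 41527 to 73191 with PL2-3, 35789 to 54960 with anti-IgM+CpG and 185000 to 262916 in media. The 9 myeloid markers summed to 13342 to 144322 with the combined treatment and 46564 to 94962 under the 3 single stimuli, against 114062 to 236573 in media, and the 9 T cell markers to 2489 to 5111 under all 4 stimuli, against 6236 to 7891 in media. Fewer cells of a type and less RNA per cell cannot be told apart in such samples.

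The promoters are shown first because the 3 genes are known targets of CREB, the cyclic AMP response element binding protein. They are the RefSeq sequences of mouse build GRCm38.p6 from 250 bases before to 50 after the annotated start, along the gene: chr15:101266596-101266895 on the plus strand for Nr4a1, chr2:57123954-57124253 on the minus strand for Nr4a2 and chr4:48045055-48045354 on the plus strand for Nr4a3. Capitals mark the half-site TGACG of the cyclic AMP response element, or its reverse complement where the half-site lies on the opposite strand.
Nr4a1 promoter: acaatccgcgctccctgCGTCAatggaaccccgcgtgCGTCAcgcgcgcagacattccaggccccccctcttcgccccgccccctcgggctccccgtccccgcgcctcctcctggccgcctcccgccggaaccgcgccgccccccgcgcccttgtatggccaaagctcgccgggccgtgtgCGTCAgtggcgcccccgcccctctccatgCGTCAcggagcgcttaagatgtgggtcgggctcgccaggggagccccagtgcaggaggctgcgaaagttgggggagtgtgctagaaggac
Nr4a2 promoter: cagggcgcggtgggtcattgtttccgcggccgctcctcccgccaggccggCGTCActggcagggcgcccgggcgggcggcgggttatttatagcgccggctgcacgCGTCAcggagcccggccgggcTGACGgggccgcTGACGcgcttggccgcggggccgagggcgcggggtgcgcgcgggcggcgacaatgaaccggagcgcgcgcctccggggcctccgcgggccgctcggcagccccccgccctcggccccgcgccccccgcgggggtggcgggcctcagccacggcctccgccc
Nr4a3 promoter: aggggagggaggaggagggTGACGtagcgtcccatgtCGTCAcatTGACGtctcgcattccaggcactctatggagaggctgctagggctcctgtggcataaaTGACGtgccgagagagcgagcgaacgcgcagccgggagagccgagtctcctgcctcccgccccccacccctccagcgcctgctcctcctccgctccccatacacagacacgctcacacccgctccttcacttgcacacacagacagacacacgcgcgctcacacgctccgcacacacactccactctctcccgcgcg

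Each of the 3 promoters held 4 half-sites, counted on both strands, and none of the half-sites overlapped another. In Nr4a1 all 4 were on the opposite strand and began 233, 213, 69 and 40 bases before the start. In Nr4a2 they began 200, 144, 123 and 111 bases before it, and in Nr4a3 231, 213, 205 and 147 bases before it. Of 32851 mouse promoters of the same length, 20.8% held at least 1 such half-site and 0.231% held at least 4. These shares were not matched for G and C content, which was 72.3%, 81.7% and 64.7% in the windows of Nr4a1, Nr4a2 and Nr4a3. Its part in the counts was not tested. The AP-1 site TGANTCA, present in 7.81% of promoters, and the nuclear receptor half-site AGGTCA, present in 16.3%, were not found in the 3 windows on either strand. A match of letters is a description and not a bound site.

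**Figure D1:**
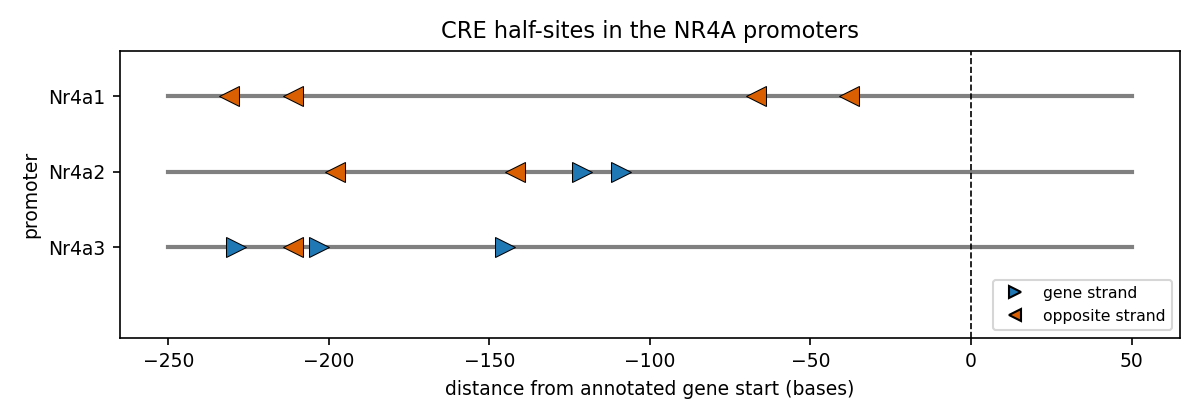
Places of the half-site TGACG in the 3 NR4A promoters, by distance in bases from the annotated gene start (dashed line). Each arrowhead is 1 half-site, pointing right on the gene strand and left on the opposite strand, and each promoter holds 4.

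Of the 8 tested probe sets, 5 rose with anti-IgM and 0 fell, where 6.95% of all 27881 tested probe sets rose and 5.88% fell. With CpG 0 rose and 4 fell, where 9.66% of all rose and 12.1% fell. All 4 were probe sets of Nr4a2, which holds 6 of the 8, so these counts and the medians below rest mostly on that gene. Nr4a1 and Nr4a3 were not called with CpG. With PL2-3 1 rose and 0 fell (8.7% and 9.81% of all), and with anti-IgM+CpG 1 rose and 2 fell (12.9% and 24.4% of all). With all arrays shifted to 1 median the split was 5 higher and 0 lower with anti-IgM, 1 and 2 with CpG, 1 and 0 with PL2-3, and 1 and 0 with anti-IgM+CpG. A probe set was called at an adjusted p under 0.05, from limma with Benjamini-Hochberg adjustment over all tested probe sets, and changes are on the scale of log2(signal + 75.2), which understates the change of dim probe sets. The median change of the 8 probe sets was 1.27 with anti-IgM, -0.78 with CpG, 0.21 with PL2-3 and 0.11 with anti-IgM+CpG, and that of all tested probe sets was -0.13, -0.22, -0.12 and -0.38 in the same order. These 4 comparisons share the media arrays. The stimulated and media arrays did not overlap at 4 of the 8 probe sets with anti-IgM (25.1% of all tested), at 2 with CpG (33.6%), at 1 with PL2-3 (27.9%) and at 3 with anti-IgM+CpG (46.1%).

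**Figure D2:**
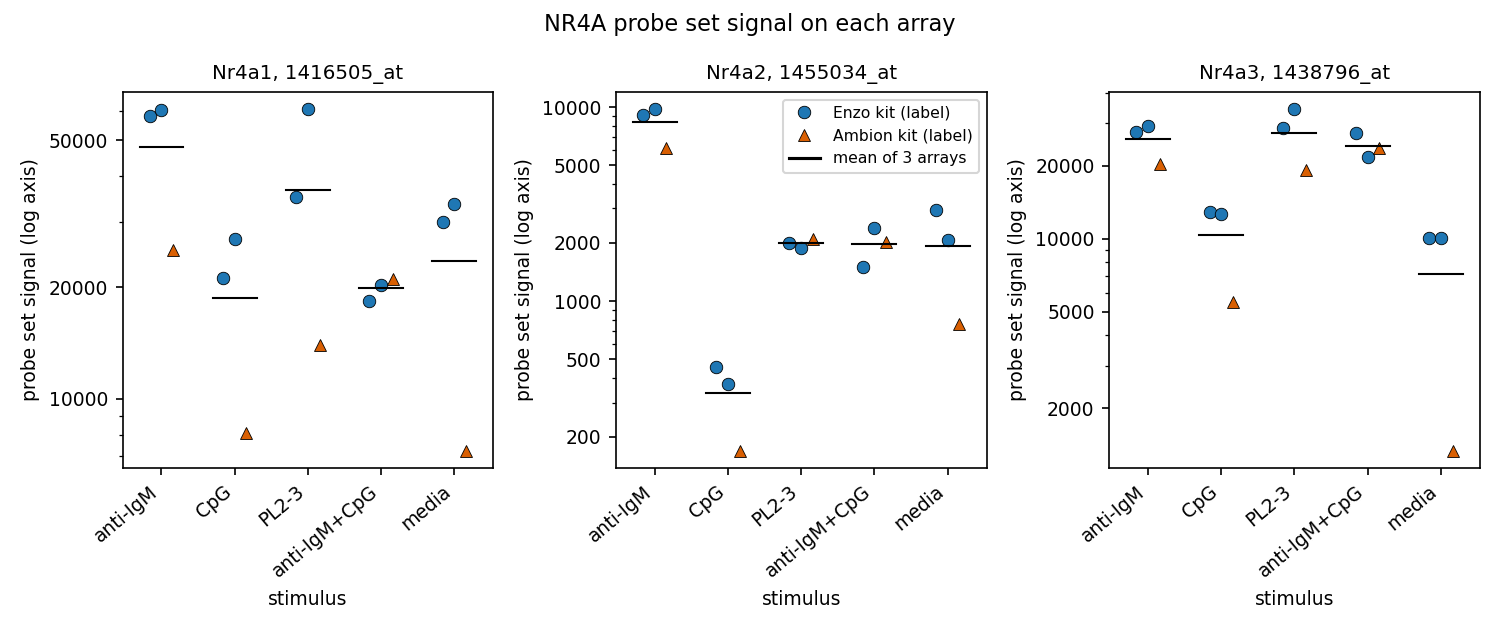
Signal of the probe set with the highest mean signal of each NR4A gene on all 15 arrays, on a log axis, by stimulus. Points are arrays, by the labelling kit the labels give, and bars are means of 3 arrays. Nr4a2 was at 6177 to 9784 with anti-IgM and 169.6 to 457 with CpG, against 765 to 2947 in media.

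Nr4a1, which encodes the receptor best known as a marker of antigen receptor signalling, rose with anti-IgM and was not called under any other stimulus against media. Its only probe set, 1416505_at, was at or above the median on all 15 arrays. It had signals of 58295, 60379 and 25274 with anti-IgM, against 30046, 33576 and 7241 in media. Each anti-IgM array was above the media array of the same number, and the groups overlapped because the Ambion anti-IgM array lay below both Enzo media arrays. The log2 change was 1.20 ± 0.33 (SE, n = 3 arrays per group, limma adjusted p = 0.0256), or 2.29-fold. Among Enzo arrays alone it was 0.90 (limma adjusted p = 0.0417), and the single Ambion arrays differed by 1.79. The call was lost when any 1 anti-IgM array was left out (limma adjusted p 0.0655 to 0.0923) or without media replicate 3 (0.86, limma adjusted p = 0.168).

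With CpG alone Nr4a1 had signals of 21219, 26966 and 8077, all inside the media range. The change against media was -0.22 ± 0.33 (limma adjusted p = 0.683), with a 95% interval of -0.93 to 0.49. With PL2-3 it had signals of 35165, 60790 and 13992, each above the media array of the same number. That change was 0.67 ± 0.33 and was not called (limma adjusted p = 0.188). Its adjusted p was 0.0207 with the actin-based labelling and 0.0240 in a limma fit without the 3 anti-IgM+CpG arrays, at the same size. Those arrays do not enter the size of this change, but they do enter the spread that the fit shares over all groups. The SE of the change was 0.33 with the kits as labelled and 0.20 with the actin-based labelling. Why the spread was wider with the kits as labelled was not tested. With anti-IgM+CpG the signals were 18355, 20307 and 21106, within the media range and close together.

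Nr4a1 also differed between the kits. Ambion against Enzo arrays gave -1.30 ± 0.22 (limma adjusted p = 0.00157), and the lowest Nr4a1 signal of each of the anti-IgM, CpG, PL2-3 and media groups was on its Ambion array. On the anti-IgM+CpG arrays the Ambion array was instead the highest.

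Nr4a2, which encodes Nurr1, the receptor needed for midbrain dopamine neurons, moved in opposite directions under the 2 single stimuli. Its brightest probe set, 1455034_at, had signals of 9117, 9784 and 6177 with anti-IgM, against 2947, 2056 and 765 in media. All 3 anti-IgM arrays were above all 3 media arrays, and the change was 2.24 ± 0.32 (SE, n = 3 arrays per group, limma adjusted p = 0.000295), or 4.71-fold. With CpG it had signals of 457, 376 and 169.6, all below all 3 media arrays. That change was -2.18 ± 0.32 (SE, n = 3 arrays per group, limma adjusted p = 0.000138). Among Enzo arrays the changes were 1.91 with anti-IgM and -2.37 with CpG, both called, and the single Ambion arrays differed by 2.90 and -1.78. Both calls held in every fit that left out 1 array, with changes of 1.82 to 2.54 and of -2.59 to -1.87. The summed B cell markers were also lower with both stimuli than in media, as given above, and their part in the CpG value was not tested.

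With PL2-3 the same probe set had signals of 1999, 1883 and 2086, inside the media range. The change was 0.23 ± 0.32 (limma adjusted p = 0.688, 95% interval -0.44 to 0.90). With anti-IgM+CpG it had 1490.4, 2386 and 2023, also inside the media range, with a change of 0.19 ± 0.32 (limma adjusted p = 0.654, 95% interval -0.48 to 0.86), and of 0.71 with the actin-based labelling (limma adjusted p = 0.114). The Enzo arrays and the Ambion arrays differed in sign in both comparisons: -0.33 and 1.36 with PL2-3, and -0.37 and 1.32 with anti-IgM+CpG. The media Ambion array had the lowest media signal, 765.

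The 6 probe sets of Nr4a2 did not all behave alike. The 3 with the highest mean signal were called higher with anti-IgM and lower with CpG. Probe set 1447863_s_at had signals of 8175, 9580 and 2791 with anti-IgM, 793, 686 and 345 with CpG, and 3138, 3490 and 1165 in media. Its changes were 1.34 ± 0.33 with anti-IgM (limma adjusted p = 0.0118) and -1.89 ± 0.33 with CpG (limma adjusted p = 0.000557). The CpG arrays were all below the media arrays, while the anti-IgM and media groups overlapped. The anti-IgM call was lost without anti-IgM replicate 2 (limma adjusted p = 0.0580) or media replicate 3 (limma adjusted p = 0.0702).

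Probe set 1450750_a_at had signals of 4116, 5293 and 2607 with anti-IgM, 639, 631 and 296 with CpG, and 1704, 1641 and 587 in media. The changes were 1.63 ± 0.30 with anti-IgM (limma adjusted p = 0.00203) and -1.14 ± 0.30 with CpG (limma adjusted p = 0.0122). All anti-IgM arrays were above all media arrays, and the CpG group overlapped media through the media Ambion array. The CpG call was lost without CpG replicate 3, media replicate 1 or media replicate 2 (limma adjusted p 0.0520 to 0.0626), and with all arrays shifted to 1 median (-0.78, limma adjusted p = 0.0790).

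The other 3 probe sets were dimmer. Probe set 1450749_a_at had signals of 1839, 2780 and 813 with anti-IgM, 919, 189.1 and 533 with CpG, 1356, 1465 and 145 with PL2-3, and 649, 458 and 502 with anti-IgM+CpG, against 1875, 2084 and 887 in media. The 3 anti-IgM+CpG arrays were all below the media arrays, and the other groups overlapped media. It was called lower with CpG (-1.55 ± 0.53, limma adjusted p = 0.0460) and with anti-IgM+CpG (-1.40 ± 0.53, limma adjusted p = 0.0487), and had a change of 0.09 ± 0.53 with anti-IgM (limma adjusted p = 0.944). With the replicate number as a block neither of these was called (-1.55 with CpG and -1.40 with anti-IgM+CpG, limma adjusted p = 0.0505 and 0.0529). The anti-IgM+CpG call was also lost in 5 of the 6 fits that left out 1 array (limma adjusted p 0.0233 to 0.176 over all 6). Without CpG replicate 2, whose 189.1 was the lowest of that group, the CpG change was -0.83 (limma adjusted p = 0.243). The CpG call was also lost without any 1 media array (limma adjusted p 0.0921 to 0.11), and was kept in 2 of the 6 fits that left out 1 array. Probe set 1433423_at was at or above the array median on 11 of 15 arrays and was called in no comparison. Probe set 1433422_at, at or above the median on 7 arrays, had signals of 628, 26.6 and 684 with anti-IgM+CpG, which include the lowest of all 15, and was called in no comparison either. Across the 15 arrays its Pearson correlation with 1455034_at was -0.08, where that of 1450750_a_at was 0.96 and that of 1447863_s_at 0.85. These correlations share arrays, kits and scaling.

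**Figure D3:**
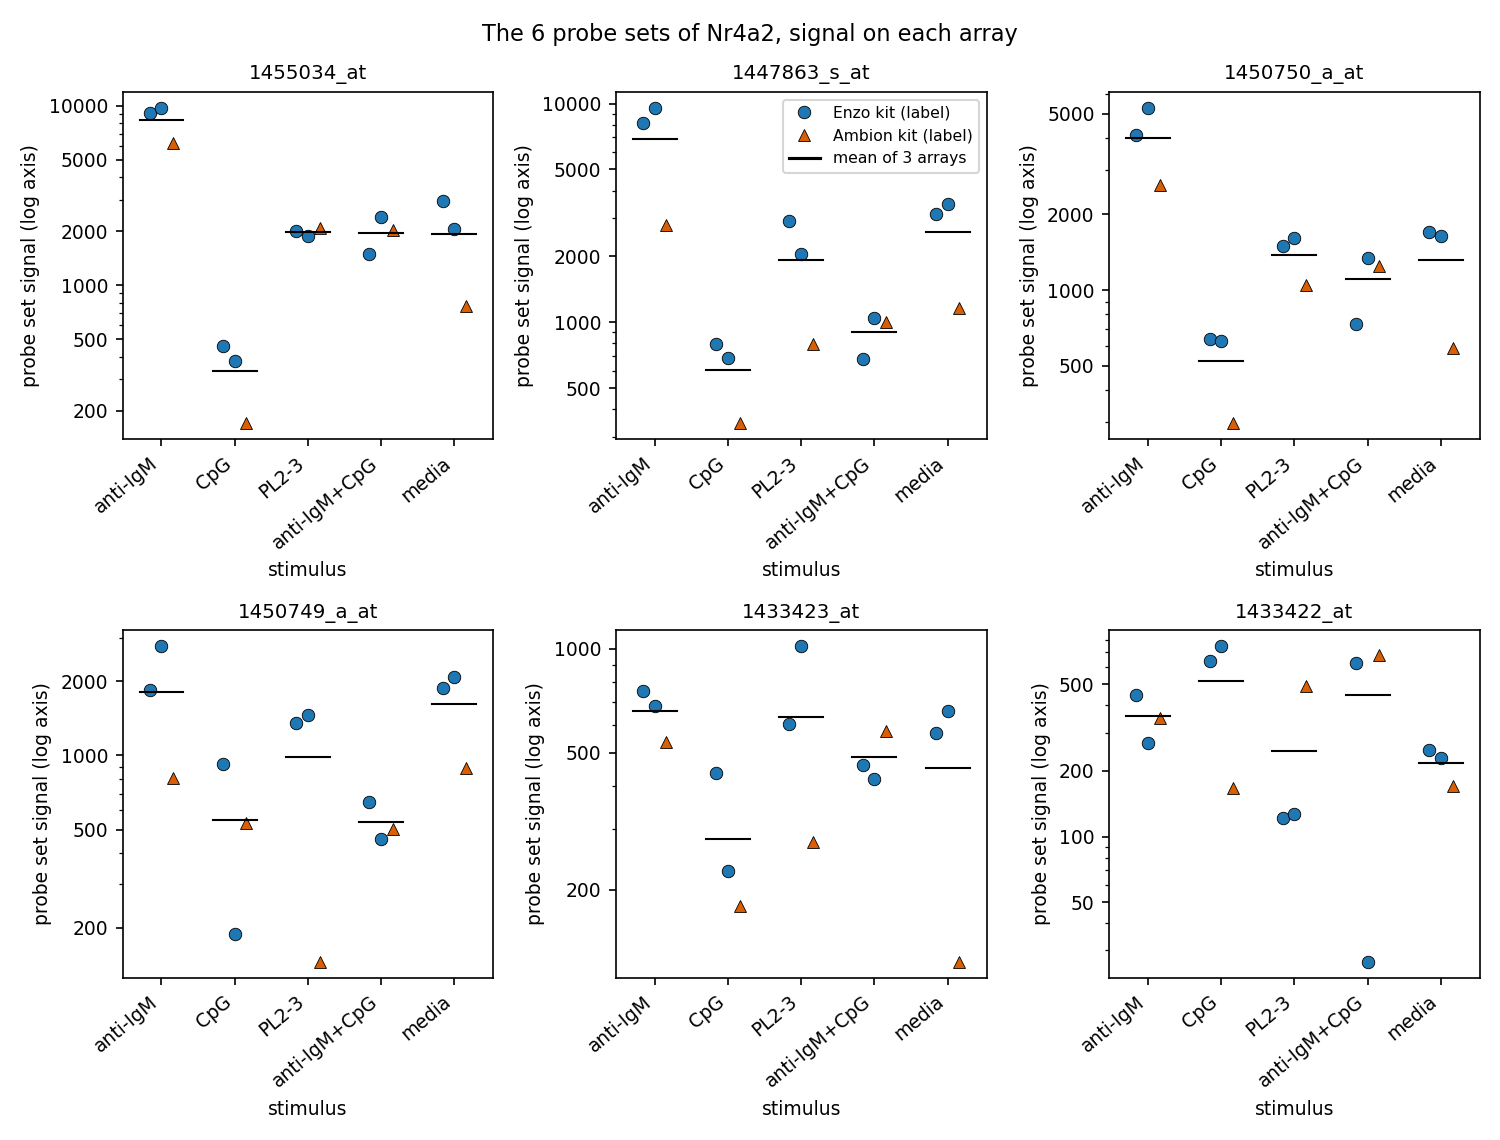
Signal of each of the 6 Nr4a2 probe sets on all 15 arrays, by stimulus, on log axes that differ between panels. Points are arrays by labelled kit and bars are means of 3 arrays. Every panel but that of 1433422_at has the order of anti-IgM above media above CpG in its means.

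Nr4a3, which encodes Nor1 and acts redundantly with Nr4a1 in mouse lymphocytes, was called higher with anti-IgM, PL2-3 and anti-IgM+CpG. Probe set 1438796_at had signals of 27594, 29174 and 20345 with anti-IgM, 28499, 34247 and 19204 with PL2-3, and 27308, 21610.1 and 23628 with anti-IgM+CpG, against 10084, 10102 and 1340.1 in media. In all 3 comparisons every stimulated array was above every media array. The changes were 2.27 ± 0.38 with anti-IgM (limma adjusted p = 0.00110), 2.34 ± 0.38 with PL2-3 (limma adjusted p = 0.000489) and 2.20 ± 0.38 with anti-IgM+CpG (limma adjusted p = 0.000381), or 4.83-, 5.06- and 4.58-fold. The change with anti-IgM+CpG was 3.07 ± 0.37 (limma adjusted p = 1.44e-05) with the actin-based labelling.

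The media Ambion array, at 1340.1, set much of the size of these Nr4a3 changes. Among Enzo arrays they were 1.48, 1.62 and 1.26, all called (limma adjusted p 0.000920, 0.000290 and 0.000242), and the single Ambion arrays differed by 3.85, 3.77 and 4.07. Without media replicate 3 they were 1.53, 1.59 and 1.45, and each was called in every fit that left out 1 array. With CpG the signals were 12829, 12688 and 5481, each above the media array of the same number. The groups overlapped because the CpG Ambion array lay below the Enzo media arrays. That change was 0.88 ± 0.38 and was not called (limma adjusted p = 0.117). It was called with all arrays shifted to 1 median (1.24, limma adjusted p = 0.0332) and in the CpG and media arrays alone (0.88, limma adjusted p = 0.0371). In 11 of the 13 alternatives other than leaving out 1 array it stayed uncalled.

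The other 2 probe sets of Nr4a3 were too dim to test. Probe set 1421080_at had signals from 59.8 to 484 and was at or above the array median on 1 of 15 arrays, and 1421079_at had signals from 10.7 to 298 and was at or above it on none. They neither bear out nor oppose the pattern of 1438796_at.

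**Figure D4:**
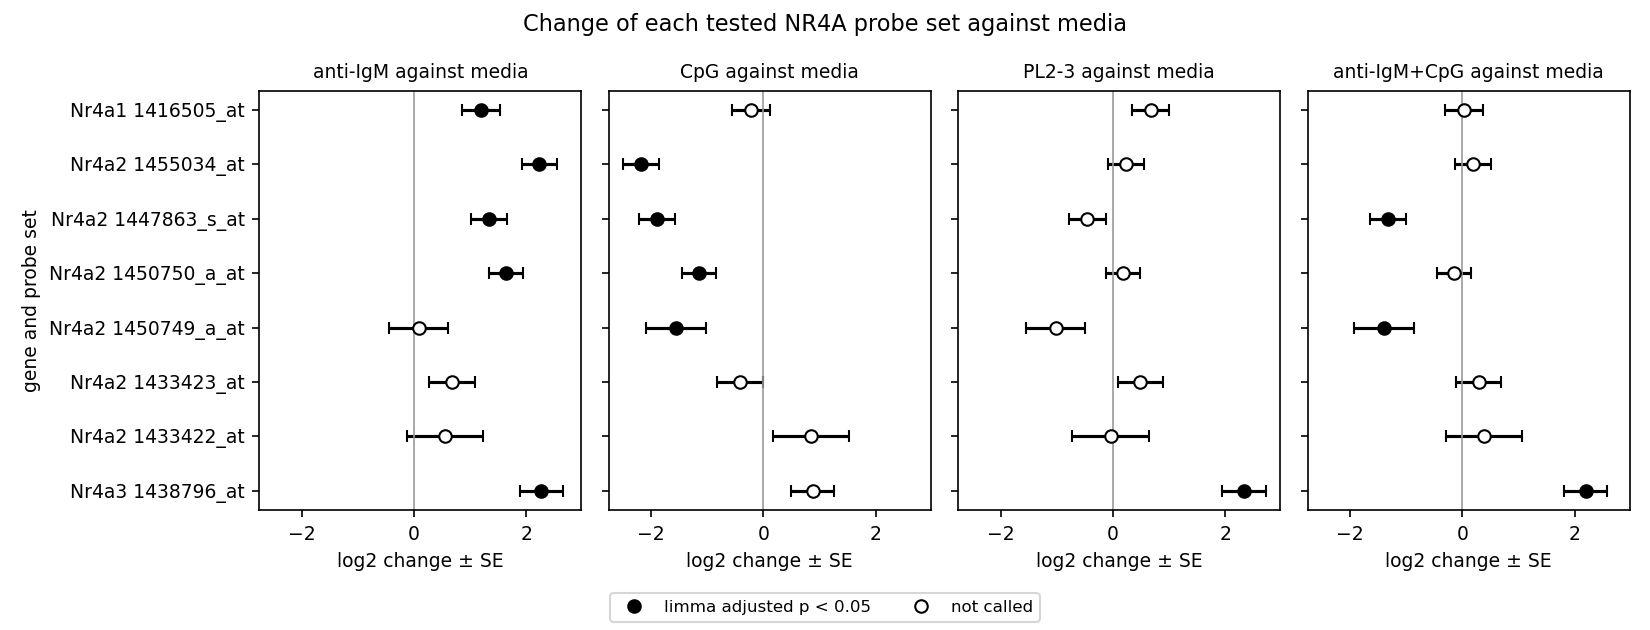
log2 change against media of the 8 tested NR4A probe sets, with its SE, in 4 panels by stimulus. Filled points were called by limma at an adjusted p under 0.05 and open points were not. Nr4a3 lies at 2.27, 2.34 and 2.20 with anti-IgM, PL2-3 and anti-IgM+CpG, and 1455034_at of Nr4a2 at 2.24 with anti-IgM and -2.18 with CpG.

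The order of the group means differed between the genes. Neighbours in each order were compared in the fit with the kits as labelled. Nr4a1 averaged 47983 ± 19693 with anti-IgM, 36649 ± 23434 with PL2-3, 19922 ± 1415 with anti-IgM+CpG, 18754 ± 9683 with CpG and 23621 ± 14295 in media (SD, n = 3 arrays each), and no neighbours in the order of these means differed in the fit. Nr4a2 averaged 8359 ± 1919 with anti-IgM, 1989 ± 102 with PL2-3, 1967 ± 451 with anti-IgM+CpG, 334 ± 148 with CpG and 1923 ± 1097 in media at 1455034_at (SD, n = 3 arrays each). There anti-IgM stood above PL2-3 and CpG stood below media, and PL2-3, anti-IgM+CpG and media did not differ beyond their spread. Nr4a3 averaged 27317 ± 7591 with PL2-3, 25704 ± 4708 with anti-IgM, 24182 ± 2889 with anti-IgM+CpG, 10333 ± 4202 with CpG and 7175 ± 5054 in media (SD, n = 3 arrays each). For Nr4a3 no neighbours in this order differed in the fit, and the first 3 groups were within 0.14 of each other on the log2 scale. Still, every anti-IgM+CpG array was above every CpG array. That difference was called in 3 of the 12 alternatives other than leaving out 1 array, at 2.19 with the actin-based labelling (limma adjusted p = 0.00313). There anti-IgM+CpG also stood 0.79 above anti-IgM, which was not called.

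Nr4a1 and Nr4a2 were lower with CpG than with anti-IgM, Nr4a2 at 3 of its 6 probe sets. In CpG against anti-IgM 0 of the 8 probe sets were higher and 4 were lower, where 1.6% of all tested probe sets were higher and 2.39% were lower. Nr4a2 differed by -4.41 ± 0.32 at 1455034_at (limma adjusted p = 3.52e-07), by -3.23 at 1447863_s_at and by -2.78 at 1450750_a_at, with no overlap of the groups at any of the 3. At 1433422_at the difference was 0.30 ± 0.68 and was not called (limma adjusted p = 0.925). Nr4a1 differed by -1.42 ± 0.33 (limma adjusted p = 0.0219), a call that only the fit without CpG replicate 2 kept among the 6 that left out 1 array (limma adjusted p 0.0369 to 0.117 over all 6). Nr4a3 differed by -1.39 ± 0.38 and was not called (limma adjusted p = 0.0553), though every CpG array was below every anti-IgM array, and it was called in Enzo arrays alone (-1.15, limma adjusted p = 0.00310) and with the actin-based labelling (limma adjusted p = 0.0172).

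With the chromatin immune complex PL2-3 the Nr4a3 arrays overlapped the anti-IgM arrays, and Nr4a2 was lower than with anti-IgM at 2 of its probe sets. In PL2-3 against anti-IgM 0 of the 8 probe sets were higher and 2 were lower, both of Nr4a2, where 0.172% of all tested probe sets were higher and 0.143% were lower. At 1455034_at the difference was -2.00 ± 0.32 (limma adjusted p = 0.00845), with every PL2-3 array below every anti-IgM array, and at 1447863_s_at it was -1.79 ± 0.33 (limma adjusted p = 0.0240), where the highest PL2-3 array lay above the lowest anti-IgM array. At 1455034_at only the fit without PL2-3 replicate 3 kept the call among the 6 that left out 1 array (limma adjusted p 0.00826 to 0.0704), and the difference ranged from -2.30 to -1.86. At 1447863_s_at only the fit without PL2-3 replicate 1 did (limma adjusted p 0.0446 to 0.151). The difference at 1450750_a_at was -1.45 and was not called, though every PL2-3 array was below every anti-IgM array. It was called with the actin-based labelling (limma adjusted p = 0.00785) and without the anti-IgM+CpG arrays (0.00299), but in 0 of the 6 fits that left out 1 array. Nr4a3 differed by 0.06 ± 0.38, with a 95% interval of -0.75 to 0.88, and Nr4a1 by -0.52 ± 0.33, with an interval of -1.23 to 0.18 (limma adjusted p = 0.999 and 0.976).

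Against CpG, PL2-3 gave 3 probe sets that were higher and 0 that were lower, all 3 of Nr4a2, where 0.829% of all tested probe sets were higher and 1.09% were lower. At 1455034_at the difference was 2.41 ± 0.32 (limma adjusted p = 0.000475), with no overlap of the groups, and it was called in every fit that left out 1 array. At 1447863_s_at and 1450750_a_at it was 1.44 and 1.33 (limma adjusted p = 0.0279 and 0.0300), and both calls were lost in every fit that left out 1 array. Nr4a1 and Nr4a3 had differences of 0.89 ± 0.33 and 1.46 ± 0.38 that were not called (limma adjusted p = 0.277 and 0.0709). With the actin-based labelling both were called (limma adjusted p = 0.0185 and 0.0212), and 5 of the 8 probe sets were higher and 0 lower, where 1.26% of all were higher and 1.37% were lower. Against anti-IgM+CpG, PL2-3 gave 0 higher and 0 lower of the 8 in limma (1.35% and 0.33% of all; 1 had an unadjusted p under 0.05), with differences of 0.64 for Nr4a1, 0.04 for Nr4a2 at 1455034_at and 0.14 for Nr4a3. The sign turned for all 3 with the actin-based labelling, to -0.46, -0.48 and -0.73, and none was called (limma adjusted p = 0.619, 0.791 and 0.651). Among Enzo arrays alone the Nr4a1 difference was 1.26 and was called (limma adjusted p = 0.00609), while the single Ambion arrays differed by -0.59.

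On the anti-IgM+CpG arrays Nr4a2 was lower than on the anti-IgM arrays, and Nr4a3 was not called different. Added CpG and the other differences of the anti-IgM+CpG arrays, such as Xist, cannot be told apart here. In anti-IgM+CpG against anti-IgM 0 of the 8 probe sets were higher and 4 were lower (2.32% and 5.61% of all). At 1455034_at of Nr4a2 the difference was -2.04 ± 0.32 (limma adjusted p = 0.00164), and -1.53 with the actin-based labelling (limma adjusted p = 0.0145). At 1447863_s_at and 1450750_a_at it was -2.66 and -1.77, and with the actin-based labelling -1.73 and -1.16, called both ways. Every anti-IgM+CpG array was below every anti-IgM array at these 3 probe sets. Nr4a3 differed by -0.08 ± 0.38 (limma adjusted p = 0.921), and by 0.79 with the actin-based labelling (limma adjusted p = 0.394). Over the 12 alternatives other than leaving out 1 array it ranged from -0.29 to 0.79 and was never called. Its size and sign are therefore not settled.

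For Nr4a1 the combined treatment could not be placed, because the value turned on how its arrays were counted. Against anti-IgM it differed by -1.16 ± 0.33 (limma adjusted p = 0.0434) with the kits as labelled and by -0.06 with the actin-based labelling (limma adjusted p = 0.955). Without anti-IgM+CpG replicate 3 that difference was -1.76 (limma adjusted p = 0.000134), and the call was lost without any 1 of the other 5 arrays (limma adjusted p 0.101 to 0.176). Against media it differed by 0.03 ± 0.33 (limma adjusted p = 0.946) with the kits as labelled, by 1.14 ± 0.22 with the actin-based labelling (limma adjusted p = 0.00103) and by -0.72 among the arrays labelled Enzo (limma adjusted p = 0.0349). Against CpG alone it differed by 0.25 (limma adjusted p = 0.724) and by 1.36 with the actin-based labelling (limma adjusted p = 0.00244).

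**Figure D5:**
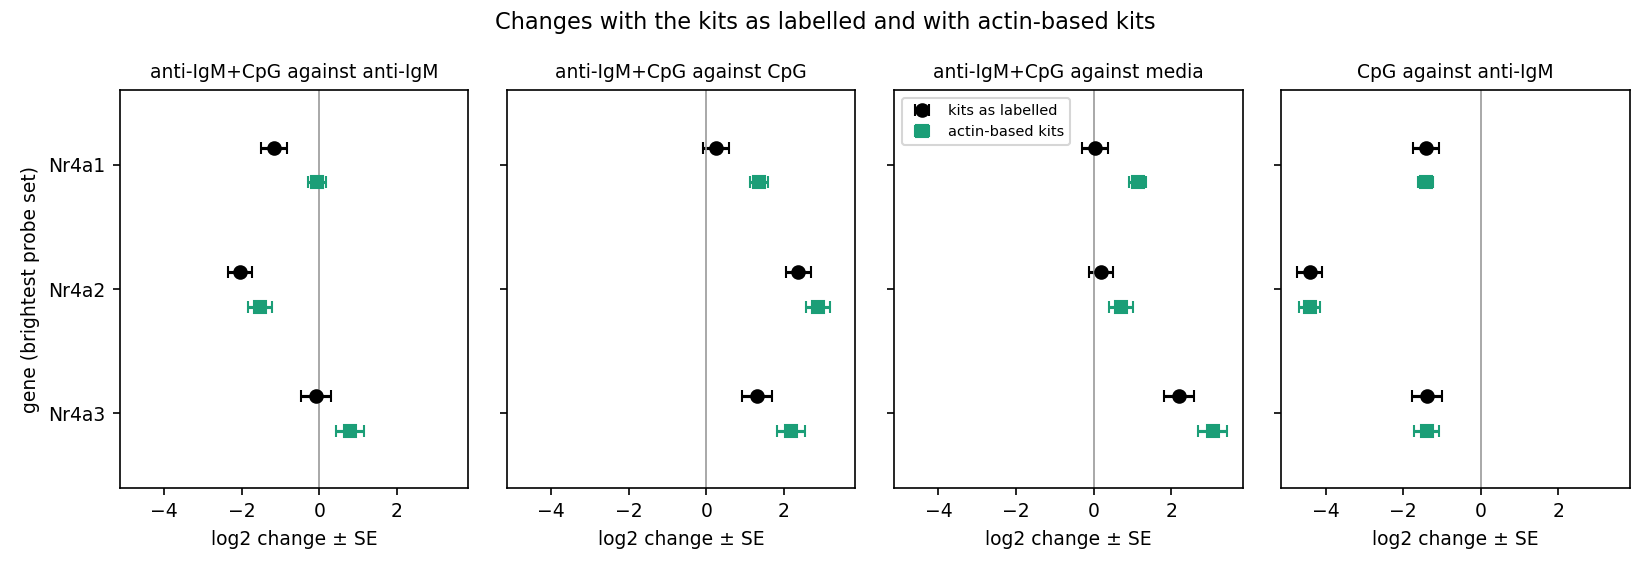
log2 change, with its SE, of the brightest probe set of each NR4A gene in 4 comparisons. Circles take the labelling kits as the labels give them and squares count the 3 anti-IgM+CpG arrays as Ambion type from their beta-actin ratio. Nr4a1 moves between -1.16 and -0.06 against anti-IgM and between 0.03 and 1.14 against media, and Nr4a2 stays below anti-IgM at -2.04 and -1.53.

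Against CpG alone, the combined treatment gave 1 higher probe set and 0 lower (1.37% and 3.02% of all), and 5 higher and 0 lower with the actin-based labelling (0.735% and 0.868% of all). Nr4a2 at 1455034_at was higher by 2.37 ± 0.32 (limma adjusted p = 0.000501), and by 2.89 with the actin-based labelling. Nr4a3 differed by 1.31 ± 0.38 and was not called (limma adjusted p = 0.0642), and by 2.19 with the actin-based labelling (limma adjusted p = 0.00313). Against media the 2 called lower probe sets were 1447863_s_at (-1.32 ± 0.33, limma adjusted p = 0.00480) and 1450749_a_at of Nr4a2. With the actin-based labelling neither was called (-0.40 and -0.56), and 2 probe sets, of Nr4a1 and Nr4a3, were higher and 0 lower, where 10.8% of all were higher and 14.3% were lower.

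Whether anti-IgM and CpG acted additively on the log2 scale was tested as the combined change minus the sum of the 2 single changes. The test cannot separate the combined treatment from the low Xist signal of its arrays. None of the 8 probe sets was called by limma (1.28% of all called), and 0 had an unadjusted p under 0.05. The values were -0.94 ± 0.47 for Nr4a1, 0.13 ± 0.45 for Nr4a2 at 1455034_at and -0.96 ± 0.54 for Nr4a3, and with the actin-based labelling 0.16, 0.65 and -0.09. Without anti-IgM+CpG replicate 3 the value of Nr4a1 was -1.54 (limma adjusted p = 0.00605) and that of 1447863_s_at of Nr4a2 was -1.30 (limma adjusted p = 0.0207).

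The immediate early factors, the class to which the NR4A genes belong, gave the setting for these changes. Each gene of the following lists was taken by its brightest probe set. The lists were chosen with earlier results of these data known, so their counts are a description only. Of 22 tested, 10 rose and 2 fell with anti-IgM, where 9.07% of all 13160 tested genes rose and 7.81% fell. With CpG 4 rose and 9 fell (12.3% and 15.1% of all genes), with PL2-3 6 rose and 3 fell (11.4% and 12.2%), and with anti-IgM+CpG 6 rose and 8 fell (16.7% and 23.8%). The median change was 0.59, -0.42, 0.15 and -0.40, against -0.13, -0.21, -0.10 and -0.29 over all genes. With anti-IgM the zinc finger factor Egr2 (2.31 ± 0.22), the AP-1 subunits Fosl1 (2.23 ± 0.29) and Fosl2 (1.52 ± 0.24) and the growth regulator Myc (2.15 ± 0.24) rose most. With CpG the AP-1 subunit Jun (3.34 ± 0.27) and Myc (2.13 ± 0.24) rose, and Egr3 (-2.96 ± 0.26), a zinc finger factor downstream of antigen receptors, and the antiproliferative Btg2 (-1.97 ± 0.19) fell.

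With PL2-3 the largest changes of that list were those of Egr2 (2.15 ± 0.22), Fosl1 (2.14 ± 0.29), Myc (2.10 ± 0.24) and Btg2 (-1.79 ± 0.19), and with anti-IgM+CpG those of Btg2 (-2.80 ± 0.19), Fosl1 (2.43 ± 0.29), Myc (2.25 ± 0.24) and Egr2 (1.98 ± 0.22), all called by limma. The split depended on scaling. With all arrays shifted to 1 median, 11 rose and 1 fell with anti-IgM, 6 rose and 6 fell with CpG, 6 rose and 3 fell with PL2-3, and 9 rose and 3 fell with anti-IgM+CpG. With the actin-based labelling 6 rose and 3 fell with anti-IgM+CpG.

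Among transcripts of the calcium, MEF2 and CREB machinery that acts on NR4A transcription, more were called lower than higher under each stimulus with the deposited scaling. The list also holds repressors, such as Hdac5 and Hdac9, so the counts cannot be read as more or less input to NR4A. Of 23 tested, 1 rose and 6 fell with anti-IgM, 1 rose and 10 fell with CpG, 1 rose and 8 fell with PL2-3, and 2 rose and 12 fell with anti-IgM+CpG, where 9.07%, 12.3%, 11.4% and 16.7% of all tested genes rose and 7.81%, 15.1%, 12.2% and 23.8% fell. The medians were -0.52, -0.64, -0.26 and -0.68, against -0.13, -0.21, -0.10 and -0.29 over all genes. With anti-IgM the kinase Prkd2 (-1.82 ± 0.33), the calcineurin subunits Ppp3ca (-1.36 ± 0.18) and Ppp3cc (-1.10 ± 0.27) fell and the calcineurin-driven factor Nfatc1 (0.90 ± 0.19) rose. With CpG the histone deacetylases Hdac9 (-2.46 ± 0.61) and Hdac5 (-2.28 ± 0.32), which repress MEF2 targets, and the factors Nfatc2 (-2.24 ± 0.39) and Mef2c (-1.48 ± 0.23) fell. With PL2-3 Hdac9 (-2.81 ± 0.61), Prkd2 (-2.19 ± 0.33), Ppp3ca (-1.47 ± 0.18) and Nfatc2 (-1.41 ± 0.39) fell most. With anti-IgM+CpG Prkd2 (-2.21 ± 0.33), Hdac5 (-2.09 ± 0.32), Mef2c (-1.94 ± 0.23) and Hdac9 (-1.80 ± 0.61) did. With all arrays shifted to 1 median the counts were 1 higher and 2 lower, 3 and 5, 1 and 6, and 7 and 4 in the same order of stimuli, so the direction of the last one flipped.

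Genes that NR4A receptors are reported to restrain in mouse B cells were mostly called higher under the 4 stimuli. This list too was chosen with earlier results of these data known, and a part of NR4A receptors in these changes was not tested. Of the 6 on this list, 4 rose with anti-IgM, 5 with CpG, 5 with PL2-3 and 5 with anti-IgM+CpG, and 0 fell, where 9.07%, 12.3%, 11.4% and 16.7% of all tested genes rose. The medians were 1.71, 2.24, 2.09 and 2.46, against -0.13, -0.21, -0.10 and -0.29 over all genes. Myc is also on the immediate early list. The chemokine Ccl3 changed by 2.52 ± 0.31, 2.93 ± 0.31, 3.34 ± 0.31 and 3.61 ± 0.31 in the same order, and the chemokine Ccl4 by 2.03 ± 0.29, 2.35 ± 0.29, 2.72 ± 0.29 and 2.66 ± 0.29. The AP-1 partner Batf changed by 2.79 ± 0.24 with CpG, 2.09 ± 0.24 with PL2-3 and 2.90 ± 0.24 with anti-IgM+CpG, all called, and by 0.16 ± 0.24 with anti-IgM, which was not (limma adjusted p = 0.736). The costimulatory ligand Cd86 rose with anti-IgM (1.38 ± 0.27) and with PL2-3 (0.81 ± 0.27), and its changes of 0.06 with CpG and 0.54 with anti-IgM+CpG were not called (limma adjusted p = 0.905 and 0.132). Icam1, an adhesion molecule, was not called with anti-IgM (0.27, limma adjusted p = 0.440) or with PL2-3 (limma adjusted p = 0.0573). With all arrays shifted to 1 median 4, 5, 5 and 6 rose and 0 fell.

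The genes whose signal followed each NR4A gene most closely over the 15 arrays differed between the 3. Of 13159 candidate genes, each by its brightest probe set, the closest to Nr4a1 by Pearson correlation of log2 values were Satb1, a chromatin organiser (0.94), the Src family kinase Fyn (0.93), Foxn2, a forkhead factor (0.91), Ttc19 (0.91) and Septin7, a cytoskeletal GTPase (0.91). The closest to Nr4a2 were Fosl2 (0.97), Nfatc1 (0.96), Irs2, an insulin receptor adaptor (0.94), the sphingosine phosphate receptor S1pr3 (0.94) and the immediate early gene Ier2 (0.93). The closest to Nr4a3 were Dot1l, a histone methyltransferase (0.96), Fam167a (0.95), the small Maf factor Maff (0.95), the calcium channel Orai1 (0.93) and M6pr, the mannose phosphate receptor (0.91). Among themselves Nr4a1 and Nr4a2 had a correlation of 0.66, Nr4a1 and Nr4a3 of 0.72, and Nr4a2 and Nr4a3 of 0.55. All of these values share arrays, kits and scaling and are a description only.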

How the data were processed

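RNA of 15 samples was measured on 1 Affymetrix mouse array each. The values are probe set signals, a linear intensity that the authors deposited and that the submitters' processing notes name as MAS5 output, whose version and scaling target the sources used here do not state. The 2% trimmed mean was nearly the same from array to array. All 3 empty cells were in the 64 control probe sets, which were left out. Probe set names came from the platform annotation: 34945 had 1 gene symbol, 932 several and 9160 none listed.

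Signals were used as log2(signal + 75.2), the added value being the 20th percentile of all signals. Tested were the 27881 probe sets that reached their array's median on 3 or more of 15 arrays. The model held the 5 groups and the labelled kit, leaving 9 residual degrees of freedom, and was fitted with limma 3.58.1 (lmFit, eBayes with trend) in R 4.3.3. Tests were two-sided, with Benjamini-Hochberg adjustment within each of 11 comparisons and calls at 0.05. Enzo-only values come from limma on replicates 1 and 2. The model was run on simulated data with independent noise, the kits as labelled and changes planted in anti-IgM only. The simulation held no mislabelled kits and no correlation of arrays beyond the kit, so it cannot speak to either. No depth applies to arrays, so their number limits the precision, and an exact permutation test of 3 against 3 arrays cannot go below 0.1.

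All NR4A probe sets are named. From each list, counts and at most the 4 called genes with the largest change per stimulus are named, by the brightest probe set (Batf with anti-IgM, and Cd86 and Icam1 elsewhere, were added after their values were seen). The 5 nearest genes per member are given. The members and lists were chosen with earlier results of these data known. Deviations from group means of same-numbered arrays correlated at 0.187 to 0.681 in all 18 pairs outside anti-IgM+CpG. Of the 36 pairs with different numbers there, 12 were above 0.1. Same-numbered arrays share the kit, which was not removed here, so these values cannot tell paired samples from a shared kit. In 0 of 12 same-numbered pairs with anti-IgM+CpG was the correlation above 0.1. Alternatives covered kit, block, scaling, filter, added value, samples in the fit, probe set choice and leaving out each array. The fit without the anti-IgM+CpG arrays was added after the data were seen. Promoters are from RefSeq. Figures used Python 3.11.15 and matplotlib 3.10.9.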

Additional observations from a re-analysis of the deposited data

How the results depend on the processing

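Over 482 alternative values of changes that were called, 398 stayed called in the same direction, 84 lost the call and 0 reversed. Over 1099 of changes that were not called, 1053 stayed uncalled (whatever their sign), 45 became called and 1 became called in the opposite direction: Nr4a1 in anti-IgM+CpG against media, at -0.72 among Enzo arrays. The cause of these shifts was not tested. The number of called NR4A probe sets moved as follows. Without the kit term it was 3 in anti-IgM against media, 2 in CpG against media, 1 in anti-IgM+CpG against media, 0 in PL2-3 against anti-IgM and 1 in PL2-3 against CpG. With 1 probe set per gene, which leaves 3 to test, it was 3, 1, 1, 1 and 1 in the same order and 2 in anti-IgM+CpG against anti-IgM. With the actin-based labelling it was 5 in anti-IgM+CpG against CpG, 5 in PL2-3 against CpG and 2 in PL2-3 against media. In the compared groups alone, and without the anti-IgM+CpG arrays, it was 5 in PL2-3 against CpG and 2 in PL2-3 against media. With arrays shifted to 1 median it was 3 in anti-IgM+CpG against CpG and 1 in anti-IgM+CpG against media. With quantile normalization it was 2 in anti-IgM+CpG against CpG and 2 in CpG against media. Among Enzo arrays it was 2 in anti-IgM+CpG against CpG and 2 in PL2-3 against anti-IgM+CpG. With the filter on all 15 arrays, which tests fewer probe sets, it was 0 in anti-IgM+CpG against CpG and 2 in CpG against media.

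Leaving out 1 array gave 3 to 5 called NR4A probe sets in anti-IgM against media, 2 to 4 in CpG against media, 1 to 1 in PL2-3 against media, 2 to 3 in anti-IgM+CpG against media, 3 to 4 in CpG against anti-IgM, 3 to 5 in anti-IgM+CpG against anti-IgM, 1 to 2 in anti-IgM+CpG against CpG, 0 to 1 in PL2-3 against anti-IgM, 1 to 1 in PL2-3 against CpG, 0 to 2 in PL2-3 against anti-IgM+CpG and 0 to 2 for non-additivity. The 2 in the last comparison came without anti-IgM+CpG replicate 3, and so did the 2 in PL2-3 against anti-IgM+CpG. A replicate block changed only the calls of 1450749_a_at, at -1.55 with CpG and -1.40 with anti-IgM+CpG (limma adjusted p = 0.0505 and 0.0529).

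Scaling moved the whole table. With arrays shifted to 1 median the median change of all probe sets was 0.12 with anti-IgM, 0.14 with CpG, 0.07 with PL2-3 and 0.21 with anti-IgM+CpG, where the deposited scaling gave -0.13, -0.22, -0.12 and -0.38, and the share of calls that were higher was 78.2%, 76.4%, 65.2% and 74.8%, where it gave 54.2%, 44.4%, 47% and 34.5%. The count of all called probe sets in anti-IgM+CpG against anti-IgM was 2210, 584 with the actin-based labelling and 1007 with quantile normalization. Over all alternatives other than leaving out 1 array it ranged from 200 to 3818 in anti-IgM+CpG against CpG, 10 to 3981 in PL2-3 against anti-IgM+CpG, 31 to 236 in PL2-3 against anti-IgM, 306 to 902 in PL2-3 against CpG, 680 to 1665 in CpG against anti-IgM and 21 to 1091 for non-additivity. Signal near the median limits 1433423_at and 1433422_at, and signal mostly below the median limits the 2 dim Nr4a3 probe sets.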

Other observations

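Of 46 listed receptors outside NR4A, 41 were on the array and 24 were tested. With anti-IgM 0 rose and 3 fell, with CpG 0 rose and 5 fell, with PL2-3 1 rose and 3 fell, and with anti-IgM+CpG 2 rose and 6 fell. Of all tested genes 9.07% rose and 7.81% fell with anti-IgM, 12.3% and 15.1% with CpG, 11.4% and 12.2% with PL2-3, and 16.7% and 23.8% with anti-IgM+CpG. The medians were -0.28, -0.63, -0.12 and -0.62, against -0.13, -0.21, -0.10 and -0.29 over all genes. The glucocorticoid receptor Nr3c1 changed by -0.99 ± 0.18, -1.17 ± 0.18, -1.35 ± 0.18 and -1.65 ± 0.18 in the same order, and Rxra, a partner of many nuclear receptors, by -1.33 ± 0.35, -1.45 ± 0.35, -1.11 ± 0.35 and -1.10 ± 0.35, all called by limma. The thyroid hormone receptor Thra fell with CpG (-1.72 ± 0.48) and with anti-IgM+CpG (-1.68 ± 0.48), and the orphan receptor Nr6a1 rose with PL2-3 (0.90 ± 0.30) and with anti-IgM+CpG (1.08 ± 0.30). With all arrays shifted to 1 median 0 rose and 1 fell, 2 rose and 3 fell, 1 rose and 2 fell, and 2 rose and 1 fell in the same order, so the direction of the last count flipped. With the actin-based labelling 1 rose and 3 fell with anti-IgM+CpG.

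Among partners and cofactors of NR4A proteins 12 were tested, and 0 rose and 4 fell with anti-IgM, 1 rose and 3 fell with CpG, 1 rose and 5 fell with PL2-3, and 1 rose and 4 fell with anti-IgM+CpG, beside the shares of all tested genes given above. The medians were -0.24, -0.19, -0.36 and -0.37, against the same medians over all genes. Bcl2, a survival protein known to bind Nr4a1, split by stimulus: it changed by -1.34 ± 0.24 with anti-IgM and -0.77 ± 0.24 with PL2-3 and by 1.49 ± 0.24 with CpG (limma adjusted p = 0.00171, 0.0350 and 0.000366). The coactivators Ncoa1 and Ncoa2 were lower under all 4 stimuli, Ncoa1 by -0.96, -0.74, -1.03 and -1.06 and Ncoa2 by -0.91, -0.97, -1.19 and -0.97 with anti-IgM, CpG, PL2-3 and anti-IgM+CpG. With all arrays shifted to 1 median 0 rose and 2 fell, 2 rose and 1 fell, 0 rose and 1 fell, and 3 rose and 0 fell in the same order.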
